A study of Mus musculus with 24 samples.

Results

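The levels of 10 genes that mark the lining of blood vessels (*Pecam1*, *Cdh5*, *Kdr*, *Tek*, *Flt1*, *Tie1*, *Vwf*, *Emcn*, *Esam* and *Eng*) were followed through the mouse testis in the days when the first spermatids appear. They were taken by symbol from the 24456 genes counted in every library, and all 10 passed the filter on low counts. Whole testes of wild-type (WT) mice and of homozygous *Atad2* knockout (KO) mice had been collected at postnatal days 20, 22, 24 and 26, with 4 libraries of each genotype on days 20 and 22 and 2 of each on days 24 and 26. The KO allele carries a *lacZ* cassette that fuses to exon 11 of *Atad2* and, after a cross with mice in which the *CMV* promoter drives Cre recombinase ubiquitously, lacks the *neo* cassette and exon 12. It is therefore constitutive, so germ cells, vessels and all other tissues of the KO mice lack ATAD2, a bromodomain protein of chromatin that is abundant in spermatogenic cells. Libraries are named by genotype, day and replicate, for example WT_d24_2. The study calls its replicates biological without naming the animals, so the p-values measure the spread between these libraries. Labels give whole testis as the source, although their extraction text also refers to purified spermatogenic cell fractions. If such a fraction had been used, the levels of vessel genes would describe what remained in it.

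Vessels of the testis run in the interstitial space between the seminiferous tubules and do not enter them, so that germ cells depend on the supply that reaches the tubule wall. Endothelial cells line the vessels and hold to each other through adhesion molecules such as VE-cadherin and PECAM1. They grow and survive under 2 ligand systems, vascular endothelial growth factors acting on KDR and FLT1 and angiopoietins acting on the TIE receptors, and pericytes and smooth muscle cells (mural cells) wrap the vessels from outside. In a library of bulk RNA, fewer cells of a type and less RNA per cell cannot be told apart.

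Libraries held 10709667 to 19491935 counts in genes, of which the 10 endothelial genes took 692 in KO_d22_4 to 2342 in WT_d20_3. *Atad2* itself was lower in every KO library (30.8 to 53.0 CPM, counts per 1000000 in the library) than in every WT library (76.1 to 171 CPM). Genes of tissues next to the testis were present and were uneven between the genotypes. The summed level of the fat cell genes *Fabp4*, *Cfd* and *Car3* ran from 0.432 to 508 CPM in the 12 WT libraries (median 45.2) and from 0.402 to 32.9 CPM in the 12 KO libraries (median 9.18). The epididymis genes *Crisp1*, *Adam7* and *Spink8* together reached 826 CPM in WT_d24_2 and 179 CPM in KO_d24_2 and were at or below 2.30 CPM in 15 libraries. Since fat and epididymis also contain vessels, the main counts of endothelial genes below are also given without the libraries that hold most of this RNA. WT_d20_2 stood apart from its group, with 3.261% of counts in mitochondrial ribosomal RNA (0.1696% to 1.062% in the other 23 libraries), and was the highest WT library of day 20 for 7 of the 10 genes. Without it 4 members were again called on the mean of days.

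Promoters of 6 of the 10 genes could be read from RefSeq (GRCm38.p6): those of *Eng*, *Emcn*, *Tek*, *Tie1*, *Kdr* and *Flt1*. They are shown because ETS factors such as ERG and FLI1 are known regulators of endothelial genes, and the levels of the genes were read in these same libraries. The letters AGGAAG or CCGGAA, both forms of the ETS motif and searched on both strands, occurred in 5 of the 6 windows of 300 bases (83.33%), against 45.2% of all 32851 promoter windows of that length. Each window runs from 250 bases before to 50 bases after the start site, 5′ to 3′ on the strand of the gene, with the ETS motif in capitals. The window of *Emcn* (chr3:137340828-137341127, plus strand) holds AGGAAG in both orientations, that of *Kdr* (chr5:75978406-75978705, minus strand) holds CCGGAA once, and that of *Tek* (chr4:94739039-94739338, plus strand) holds neither:
Emcn: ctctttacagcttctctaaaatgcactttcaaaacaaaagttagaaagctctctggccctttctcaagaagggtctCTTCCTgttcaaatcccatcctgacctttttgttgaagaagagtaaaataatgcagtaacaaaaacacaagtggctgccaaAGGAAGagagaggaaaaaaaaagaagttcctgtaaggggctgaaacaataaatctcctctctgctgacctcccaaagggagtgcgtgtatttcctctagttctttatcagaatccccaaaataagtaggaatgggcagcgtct
Kdr: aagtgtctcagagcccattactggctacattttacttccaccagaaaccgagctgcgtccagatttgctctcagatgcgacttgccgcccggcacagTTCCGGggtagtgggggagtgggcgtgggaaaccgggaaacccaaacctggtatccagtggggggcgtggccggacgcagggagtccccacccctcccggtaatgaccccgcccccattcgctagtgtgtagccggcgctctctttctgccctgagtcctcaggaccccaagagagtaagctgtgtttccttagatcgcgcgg
Tek: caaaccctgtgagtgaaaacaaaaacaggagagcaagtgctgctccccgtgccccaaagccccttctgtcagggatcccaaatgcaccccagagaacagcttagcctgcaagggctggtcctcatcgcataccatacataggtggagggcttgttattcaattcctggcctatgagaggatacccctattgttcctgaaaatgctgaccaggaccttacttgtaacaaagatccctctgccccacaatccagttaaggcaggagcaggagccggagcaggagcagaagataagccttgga
The letters AGATAA, the core bound by factors of the GATA family, occurred in the *Tek* window alone among the 6, and in 11.18% of all windows. These matches describe the letters only.

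Per length, VE-cadherin mRNA was the most abundant of the 10. In WT testes on day 20, *Cdh5* stood at 10.8 ± 1.79 RPKM, which is CPM divided by the exon length in kilobases (SD, n = 4), followed by *Eng* at 4.58 ± 1.16, *Kdr* at 2.01 ± 0.487, *Pecam1* at 1.80 ± 0.502, *Tek* at 1.62 ± 0.383 and *Esam* at 1.44 ± 0.379. *Emcn* (0.825 ± 0.284), *Tie1* (0.691 ± 0.241), *Vwf* (0.503 ± 0.0922) and *Flt1* (0.397 ± 0.141) were below 1 RPKM. Steps from *Cdh5* to *Eng* and from *Eng* to *Kdr* exceeded the spread between libraries, whereas neighbours from *Kdr* to *Esam*, and from *Emcn* to *Flt1*, lay within an SD or so of each other. With the longest transcript in place of the merged exons, *Pecam1* and *Kdr*, *Esam* and *Tek*, and *Vwf* and *Tie1* changed places. Among 16490 genes with a level in these libraries, *Cdh5* lay at the 71.7th percentile and *Flt1* at the 16.8th, so most of these vessel genes were minor transcripts of the whole testis.

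**Figure D1:**
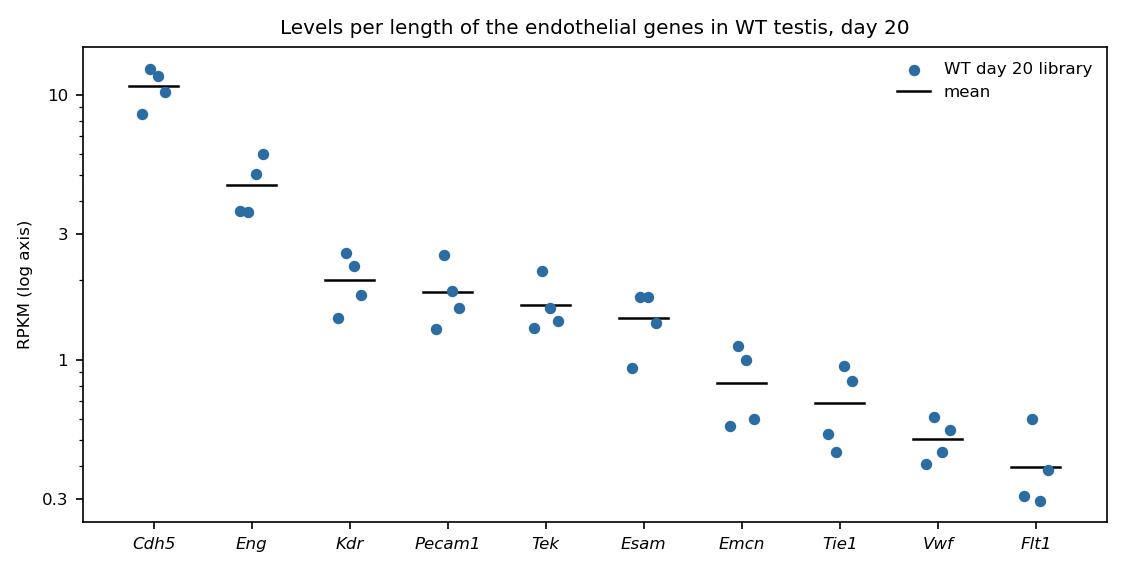
Level of each endothelial gene in the 4 WT libraries of day 20, in RPKM on a log axis, with the mean as a line. *Cdh5* (mean 10.8) and *Eng* (mean 4.58) stand above the other 8, which range from 2.01 for *Kdr* to 0.397 for *Flt1*.

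On the mean of the 4 daily differences, 4 of the 10 vessel genes were called lower in the KO testis. edgeR's quasi-likelihood test with Benjamini-Hochberg adjustment over 17170 genes called *Esam*, *Emcn*, *Pecam1* and *Cdh5*, where 7.08% of all genes were called in either direction and 3.56% were called lower. All 10 estimates were below 0, with a median log2 fold change of -0.41 against 0.01 for all genes. *Kdr*, *Tek*, *Eng*, *Flt1*, *Tie1* and *Vwf* did not pass. Libraries of the genotypes were apart, with KO lower, for 0 members on day 20, 2 on day 22, 5 on day 24 and 8 on day 26, and for 1.68%, 4.45%, 21.4% and 31.1% of all genes. The first 2 ages compare 4 libraries with 4 and the last 2 only 2 with 2, where such gaps are common, so that overlap cannot be compared between ages. On removal of the libraries rich in fat or in epididymis RNA the 4 calls were lost, with *Cdh5* at -0.52 and -0.57 and *Esam* at -0.62 and -0.57, as 0.420% and 0.199% of all genes were then called. With scores of that RNA as covariates 3 of the 4 were called.

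*Cdh5* (GRCm38, as for all coordinates here, chr8:104101625-104144511, plus strand) encodes VE-cadherin, the cadherin of endothelial adherens junctions. WT libraries gave 35.7, 52.8, 49.5 and 43.1 CPM on day 20, 32.9, 32.9, 34.2 and 35.2 on day 22, 31.4 and 38.2 on day 24 and 30.4 and 23.4 on day 26. KO libraries gave 30.2, 41.9, 36.0 and 33.0 CPM, then 24.3, 22.2, 33.9 and 12.5, then 25.6 and 23.8, and last 13.4 and 18.2. Genotypes overlapped on days 20 and 22, and the pairs of days 24 and 26 were apart. The mean log2 fold change was -0.54 (SE 0.124, adjusted p = 0.0166), a KO level at 68.8% of WT. A noncoding gene, *Gm29682*, lies on the opposite strand within *Cdh5*, and reads were counted by strand.

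*Esam* (chr9:37528078-37538319, plus strand) encodes an immunoglobulin-type adhesion molecule of endothelial tight junctions. It stood at 2.67, 4.95, 4.97 and 3.96 CPM in WT on day 20, 3.87, 2.93, 2.21 and 4.30 on day 22, 3.60 and 6.05 on day 24 and 4.46 and 4.59 on day 26. KO libraries held 2.47, 4.25, 3.90 and 3.86 CPM, then 2.60, 2.28, 2.24 and 1.61, then 3.11 and 3.07, and last 1.86 and 1.66. The genotypes overlapped at the first 2 ages, and the pairs at the last 2 were apart. On day 26 the KO level was 39.0% of WT. Over the days it averaged -0.70 on the log2 scale (SE 0.150, adjusted p = 0.0110). On day 26 alone it was -1.36 (SE 0.353) with an unadjusted p of 0.000926 that became 0.149 on adjustment in edgeR.

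*Emcn* (chr3:137341067-137432185, plus strand) encodes endomucin, a sialomucin on the surface of capillary and venous endothelium. WT values were 3.06, 6.11, 5.43 and 3.24 CPM on day 20, 4.37, 3.85, 2.74 and 4.24 on day 22, 3.72 and 5.03 on day 24 and 2.14 and 3.30 on day 26. KO values were 2.90, 3.99, 3.30 and 3.32 CPM, then 2.18, 2.59, 3.56 and 1.47, then 2.56 and 1.18, and last 1.65 and 1.89. The groups of 4 overlapped and the groups of 2 were apart. Averaged over days, the fold change reached -0.71 on the log2 scale (SE 0.176, adjusted p = 0.0226). *Emcn* is among the least counted of the 10, down to 18 counts in KO_d24_2, and its largest daily difference, -1.23 on day 24 (adjusted p = 0.516), was -0.77 without that library, -1.88 without KO_d24_1 and -0.55 without the libraries rich in *Crisp1*.

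*Pecam1* (chr11:106654217-106750628, minus strand) encodes CD31, an adhesion molecule of endothelial contacts that is also made by platelets and some leukocytes. WT libraries had 8.17, 15.5, 11.4 and 9.86 CPM on day 20, 6.97, 9.03, 7.57 and 8.59 on day 22, 7.07 and 11.7 on day 24 and 5.04 and 8.82 on day 26. KO libraries had 5.95, 8.89, 7.33 and 8.13 CPM, then 7.14, 4.75, 4.68 and 4.36, then 4.97 and 7.0, and last 4.89 and 5.05. Only day 24 was free of overlap, and there by a narrow margin. The log2 fold change over the days was -0.57 (SE 0.138, adjusted p = 0.0205). WT_d24_2 and WT_d26_2, the higher WT libraries at their ages, were 2 of the 5 libraries richest in fat cell genes.

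*Kdr* (chr5:75932827-75978458, minus strand) encodes the main signalling receptor for vascular endothelial growth factor A and was the one member called at a single age. On day 22 the WT libraries held 12.3, 11.1, 12.1 and 14.2 CPM and the KO libraries 8.23, 6.49, 6.13 and 4.89 CPM, with no overlap. That difference was -0.95 on the log2 scale (SE 0.248, adjusted p = 0.0444), a KO level at 51.9% of WT, on a day when 2.51% of genes were called and 1.25% were called lower. At the other ages the genotypes overlapped, with 13.1, 23.0, 20.4 and 16.0 CPM in WT against 7.83, 13.5, 14.9 and 19.2 in KO on day 20, 12.2 and 17.0 against 17.9 and 9.22 on day 24 and 9.33 and 11.7 against 9.98 and 8.38 on day 26. The mean over days was -0.41 (SE 0.149, adjusted p = 0.0965). The day 22 call was lost in 16 of the 24 fits that left out 1 library, and in each of 3 fits that dealt with fat and epididymis RNA (log2 fold change -0.98 to -0.62).

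*Flt1* (chr5:147561604-147726011, minus strand) encodes the high-affinity receptor that also limits free growth factor. Its mean log2 fold change was -0.31 (SE 0.138, adjusted p = 0.171), and its libraries spread from 3.26 to 8.11 CPM in WT and 2.61 to 5.62 CPM in KO. The angiopoietin receptor *Tek* (chr4:94739289-94874976, plus strand) gave -0.42 (SE 0.147, adjusted p = 0.0852) with 4.69 to 10.2 CPM in WT and 2.68 to 7.19 CPM in KO. Its partner *Tie1* (chr4:118471191-118490061, minus strand), a receptor-like kinase without a firmly assigned ligand, gave -0.28 (SE 0.154, adjusted p = 0.298) with 2.21 to 4.68 CPM in WT and 1.47 to 4.09 CPM in KO. *Eng* (chr2:32646595-32682669, plus strand), a co-receptor for BMP9 and TGF-beta ligands, gave -0.41 (SE 0.139, adjusted p = 0.0749) with 9.04 to 24.3 CPM in WT and 7.23 to 20.2 CPM in KO. On day 26 the pairs of all 4 were apart, with WT higher, as were those of *Flt1* on day 24. *Tie1* was also apart on day 22, at 2.97 to 3.43 CPM in WT against 1.47 to 2.90 in KO. The annotation places *Fpgs* on the opposite strand and *Mir1954* on the same strand within the span of *Eng*.

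*Vwf* (chr6:125546774-125686679, plus strand) encodes von Willebrand factor, the clotting protein stored in endothelial granules, and differed least between genotypes on the mean of days. WT libraries held 6.52, 9.79, 7.23 and 8.78 CPM on day 20, 8.17, 6.94, 7.86 and 5.73 on day 22, 8.25 and 9.31 on day 24 and 15.6 and 13.0 on day 26. KO libraries held 5.80, 6.34, 9.25 and 9.21 CPM, then 5.51, 9.26, 5.07 and 5.16, then 12.3 and 8.96, and last 10.5 and 12.2. The groups overlapped until day 24 and were apart on day 26, when the WT pair was higher. The mean log2 fold change was -0.08 (SE 0.125, 95% interval -0.34 to 0.18, adjusted p = 0.755). This mean joins daily values of opposite sign, such as 0.28 on day 24 and -0.34 on day 26. With the stage score described below as a covariate it was -0.28.

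**Figure D2:**
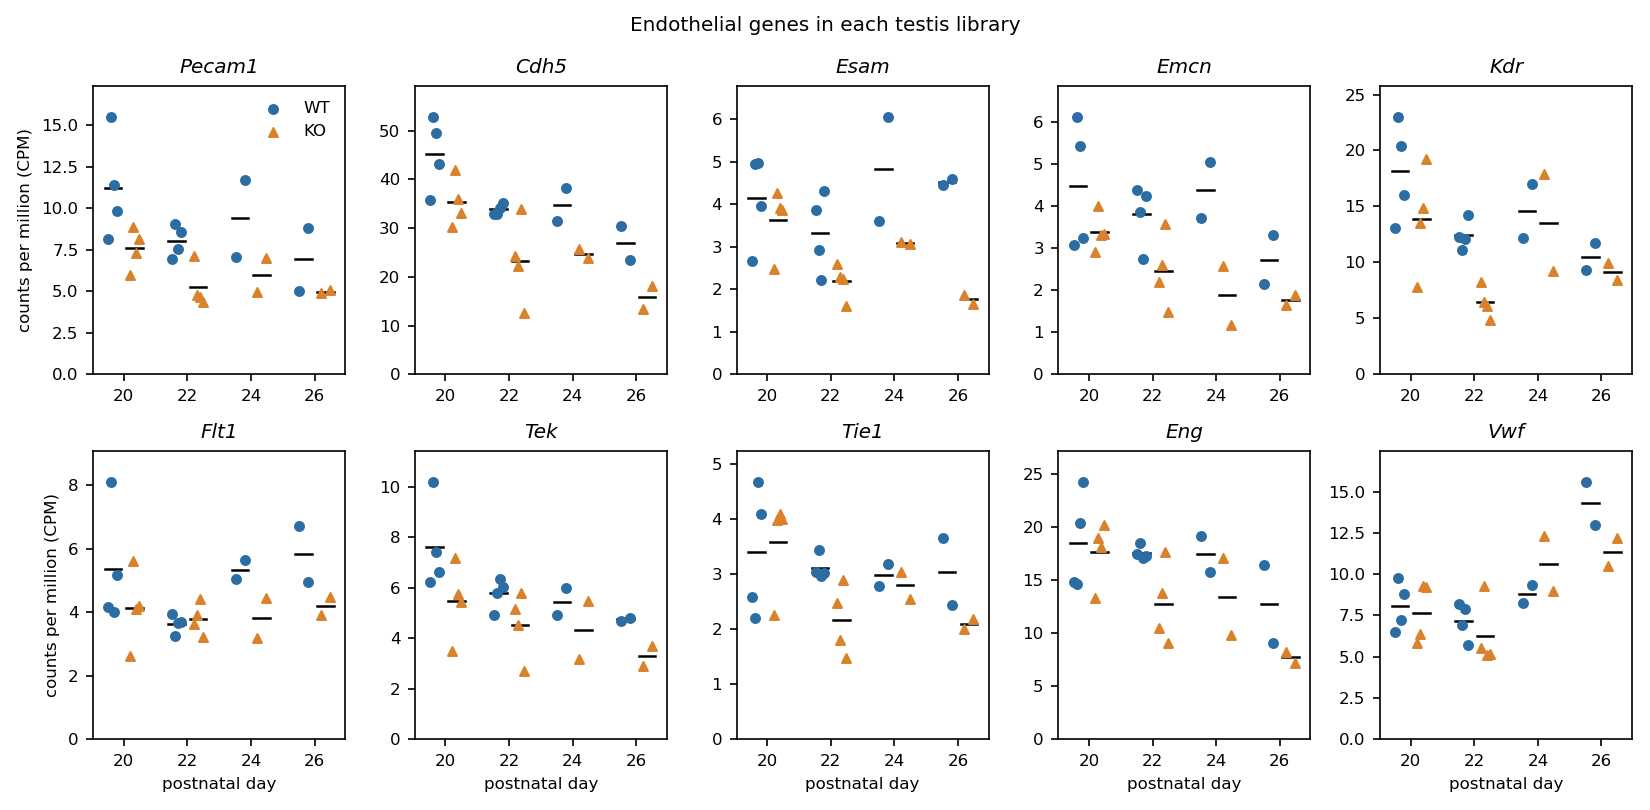
CPM of the 10 endothelial genes in each library (WT circles, KO triangles, group means as lines) against postnatal day, with every axis starting at 0. *Kdr* on day 22 shows 4 WT libraries at 11.1 to 14.2 above 4 KO libraries at 4.89 to 8.23, and *Vwf* is highest on day 26, up to 15.6 in WT.

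Day by day, few differences passed. On day 20, where 3.34% of genes were called, none of the 10 was called by edgeR or DESeq2, and 1 had an unadjusted p under 0.05 (*Pecam1*, -0.56). On day 24 (0.0874% of genes called) both tools again called 0, with 1 unadjusted p under 0.05 (*Emcn*). On day 26 (0.0466% called) both called 0, with 3 unadjusted p-values under 0.05 (*Esam*, *Cdh5* and *Eng*). Without the fat-rich or the *Crisp1*-rich libraries edgeR called 0 members at each of the 4 ages (0 to 3 with an unadjusted p under 0.05), where at most 1.18% of all genes (fat-rich left out) and 0.111% (*Crisp1*-rich left out) were called at any age, so that these zeros say little about the members. The endothelial score, the mean centred log2 CPM of the 10 genes, differed between KO and WT by -0.27 on day 20, -0.50 on day 22, -0.42 on day 24 and -0.57 on day 26. Score values of the 2 genotypes overlapped on day 20 and were apart within each of the other ages, with WT at -0.00 to 0.42 and KO at -0.86 to -0.06. On days 24 and 26 this compares 2 libraries with 2, where 21.4% and 31.1% of all genes were apart with KO lower. The same score of the mural cell genes given below was also apart at these ages, with a difference of -0.84 on day 26. A joint test of whether the genotype difference changed between days called 0 of the 10 in edgeR and DESeq2 (none with an unadjusted p under 0.05) and 0.00582% of all genes.

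Fat cell genes were uneven between libraries. Their summed level ran from 0.432 to 62.4 CPM in WT and from 1.37 to 19.2 CPM in KO on day 20, and from 27.9 to 337 CPM in WT and 0.402 to 29.2 CPM in KO on day 22. At the last 2 ages 1 WT library was rich in them (508 and 166 CPM) and the other lay below both KO libraries (11.5 and 0.521 CPM). Over 200 counts of *Fabp4* and *Cfd* together were found in 5 libraries, all WT: WT_d22_2, WT_d22_3, WT_d22_4, WT_d24_2 and WT_d26_2. Without them 1 WT library was left at each of days 22, 24 and 26, assumed to vary like the other groups. All 10 estimates of the mean difference were still below 0 with a median of -0.33, but edgeR called 0 of 10 (4 with an unadjusted p under 0.05) and 0.420% of all genes. *Cdh5* (-0.52), *Esam* (-0.62) and *Emcn* (-0.61) were close to their values in all libraries, whereas *Pecam1* moved from -0.57 to -0.29. Leaving out the 9 libraries with over 100 counts of *Crisp1*, 5 WT and 4 KO, likewise gave 10 negative estimates with a median of -0.45, 0 of 10 called (3 with an unadjusted p under 0.05) and 0.199% of all genes called. In that fit days 24 and 26 compare 1 library with 1, and their spread is borrowed from the other groups. There *Kdr* moved from -0.41 to -0.17 and *Emcn* from -0.71 to -0.46. With the 2 scores of fat and epididymis genes as covariates on all 24 libraries, where 3.77% of genes were called, *Cdh5* (-0.50, adjusted p = 0.0393), *Esam* (-0.62, adjusted p = 0.0277) and *Pecam1* (-0.38, adjusted p = 0.0372) were called and *Emcn* (-0.59, adjusted p = 0.0643) was not. The count of 4 in all libraries fell on leaving out WT_d24_2, KO_d26_1, KO_d26_2 or WT_d26_2, each of which leaves a single library in its group. Over the 24 fits that left out 1 library, *Cdh5* ran from -0.60 to -0.48 and *Esam* from -0.78 to -0.58. In the same fits *Emcn* ran from -0.88 to -0.60 and *Pecam1* from -0.66 to -0.46.

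**Figure D3:**
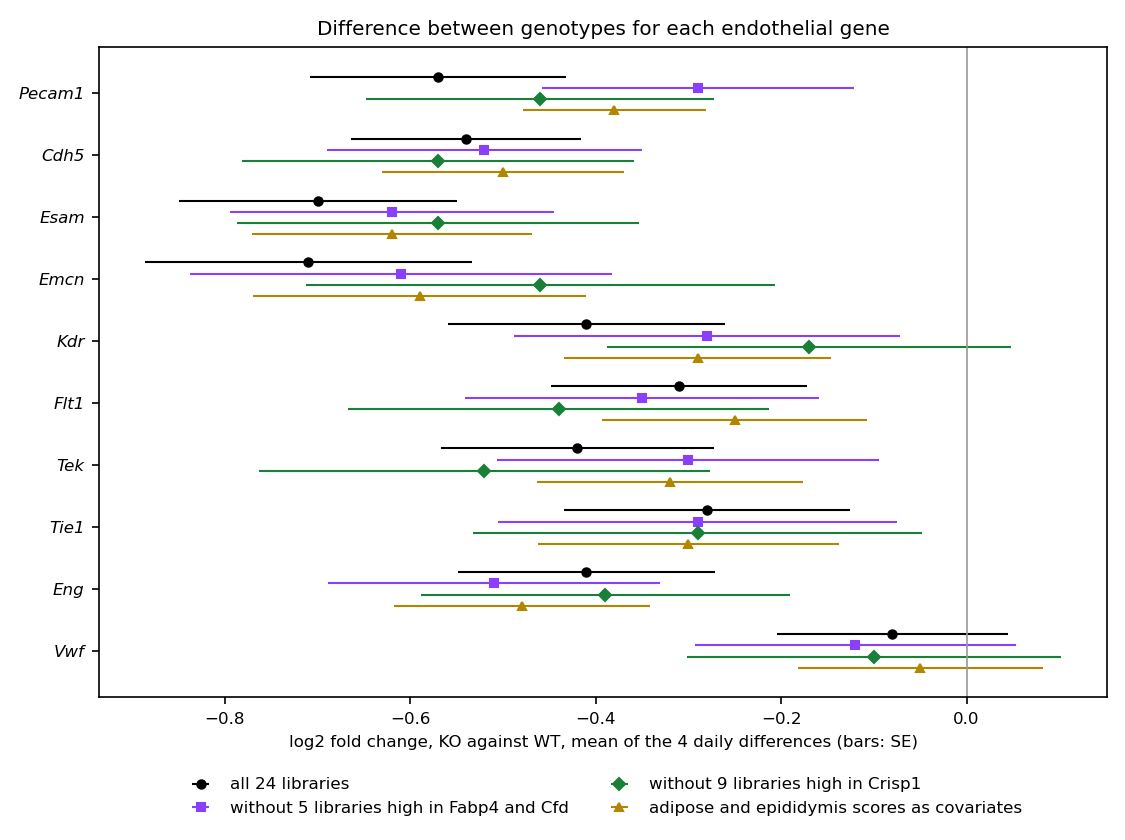
Mean of the 4 daily log2 fold changes (KO against WT) of each endothelial gene with its standard error, in all 24 libraries and in 3 fits that deal with fat and epididymis RNA. All 40 points lie below 0, and *Pecam1* (-0.57 to -0.29), *Emcn* (-0.71 to -0.46) and *Kdr* (-0.41 to -0.17) move most.

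**Figure D4:**
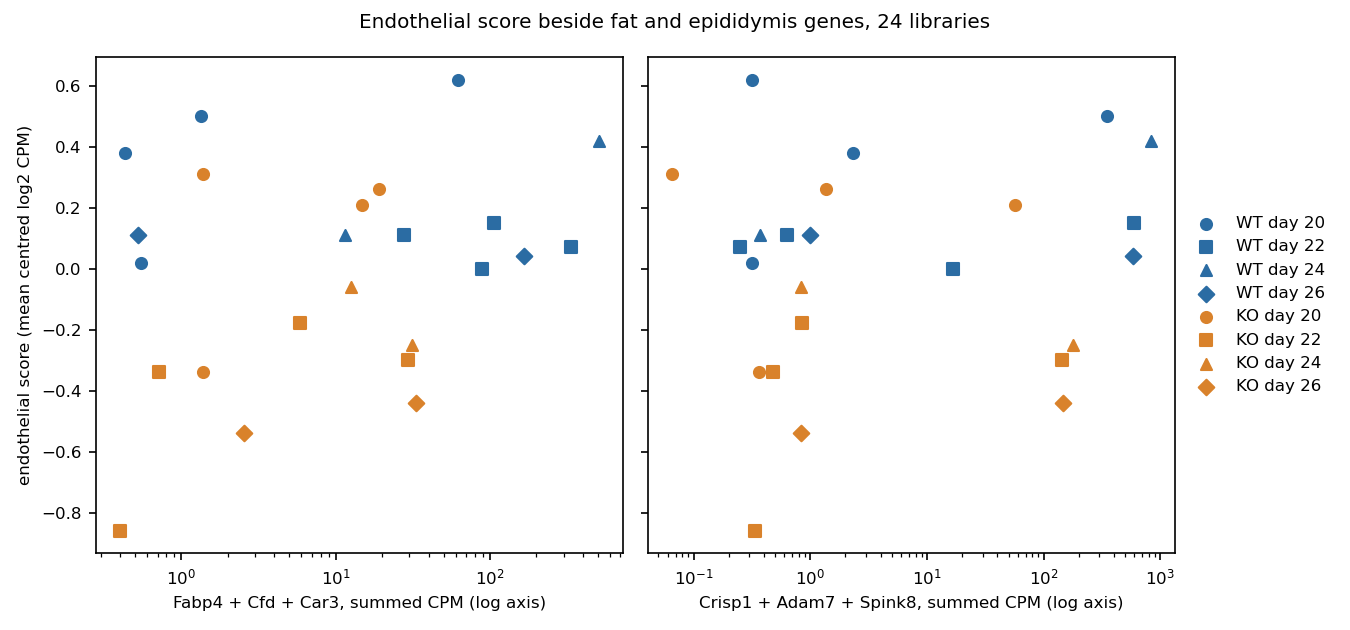
Endothelial score of the 24 libraries against the summed CPM of 3 fat cell genes (left) and 3 epididymis genes (right), both on log axes, coloured by genotype and shaped by day. WT_d24_2 has the highest fat level (508 CPM) and a score of 0.42, while WT_d20_4 has a fat level of 0.432 CPM and a score of 0.38, and KO_d22_4 the lowest level (0.402 CPM) and the lowest score (-0.86).

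Spermatid genes also moved with genotype, being higher in the KO at the younger ages. The stage score, the mean centred log2 CPM of round spermatid genes minus that of pachytene spermatocyte genes, differed by 1.96 on day 20, 0.84 on day 22, -0.07 on day 24 and -0.32 on day 26. With this score as a covariate, 1 of the 10 endothelial genes (*Esam*, -0.70, adjusted p = 0.0414) was called on the mean of days, where 1.63% of all genes were, and the median estimate was -0.50. The part of germ cell stage in the other differences was not tested beyond this fit. Of 12 genes of Sertoli cells, the somatic cells inside the tubules, 0 were called on the mean of days in edgeR or DESeq2 (2 and 3 with an unadjusted p under 0.05), with a median of -0.01. Scaling the libraries on those 12 genes gave 4 endothelial genes called, where 4.82% of all genes were, with a median of -0.43.

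Ligands of the vessel were tested as a list of 11 (*Vegfa*, *Vegfb*, *Vegfc*, *Figf*, *Pgf*, *Angpt1*, *Angpt2*, *Apln*, *Dll4*, *Jag1* and *Pdgfb*). On the mean of days 1 of the 11 was called, near the 7.08% of all genes called. It was *Vegfa*, the chief growth factor for endothelium, at -0.54 (SE 0.121, adjusted p = 0.0155), and the list median was -0.20. Of 12 further endothelial receptors 5 were called lower, where 3.56% of all genes were, and none higher. They were the apelin receptor *Aplnr* (-1.28, adjusted p = 0.000446), the surface lectin-like protein *Cd93* (-0.55), the BMP9 receptor *Acvrl1* (-0.53), the receptor phosphatase *Ptprb*, which acts on TEK (-0.43), and the co-receptor *Nrp2* (-0.42). *Nrp2* was also called on day 22 (-0.71, adjusted p = 0.0302), where 2.51% of all genes were called.

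Surface and junction genes numbered 14, all with estimates below 0, and 4 were called: *Mcam* (-0.36, adjusted p = 0.00639), which was also called on day 20 (-0.45), *Cd34* (-0.46), *Myct1* (-0.71) and *Fabp4* (-2.93). *Fabp4* is made by capillary endothelium and, far more, by fat cells, and it is one of the 2 genes that singled out the fat-rich WT libraries. Of 14 transcription factors and intracellular proteins 2 were called lower, the ETS factors *Ets1* (-0.37, adjusted p = 0.0153) and *Erg* (-0.40, adjusted p = 0.0343), and *Sox7* was called on day 22 alone (-0.96, adjusted p = 0.0414). Over the 4 lists together 12 of 51 genes were called lower, where 3.56% of all genes were, and 0 higher. Of the 51 estimates 43 were below 0, where 49% of all genes were, and the median was -0.29. At single ages 1 of the 51 was called on day 20 and 2 on day 22, close to the 3.34% and 2.51% of all genes called. Without the fat-rich libraries or without the *Crisp1*-rich libraries 0 of the 51 were called in edgeR (11 and 13 with an unadjusted p under 0.05), where 0.420% and 0.199% of all genes were called, with 39 estimates below 0 in both fits and medians of -0.19 and -0.17. With both scores as covariates 7 were called lower, where 3.77% of all genes were called. With the stage score as a covariate 3 were called lower, in a fit that called fewer of all genes than the main fit. Leaving out WT_d24_2 also reduced the count, in a fit with a single WT library on day 24.

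Genes of the cells around the vessels were tested next, where 3.56% of all genes were called lower on the mean of days and 1.25% on day 22. Of 7 mural cell genes that passed the filter, 6 were called lower on the mean of days: *Kcnj8* (-0.76) and *Abcc9* (-0.56), subunits of a pericyte potassium channel, *Notch3* (-0.66, adjusted p = 0.00316), *Pdgfrb* (-0.56), *Heyl* (-0.52) and *Cspg4* (-0.43). *Abcc9* was called on day 22 as well (-0.63). Of 4 lymphatic endothelium genes tested, *Lyve1* (-0.83, adjusted p = 0.00412) and *Pdpn* (-0.33) were called, and *Lyve1* also on day 22 (-1.54, adjusted p = 0.00335). Without the fat-rich or the *Crisp1*-rich libraries 0 of these 4 were called in edgeR (2 with an unadjusted p under 0.05 in each fit), with medians of -0.32 and -0.52 against -0.50 in all libraries. Among 6 genes of peritubular and smooth muscle, *Myh11* (-0.53) and *Acta2* (-0.42) were called. Without the fat-rich or the *Crisp1*-rich libraries 0 mural genes were called in edgeR (4 with an unadjusted p under 0.05 in each fit), the 7 estimates running from -0.56 to -0.33 and from -0.79 to -0.44, and with the covariates 6 were called. So few genes were called in these 2 fits, 0.420% and 0.199% of all, that zeros on short lists say little. Of the peritubular and smooth muscle genes the same removals left 0 called in edgeR (2 and 1 with an unadjusted p under 0.05), with medians of -0.35 and -0.27 against -0.43, and the covariates 2.

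Other cells can carry some of the 10 transcripts, and their lists were read against the 7.08% of all genes called. Macrophages, which can express *Pecam1*, gave 1 of 9 genes called lower (*Cd163*, -0.67, adjusted p = 0.0415) and a median of 0.02, although on day 26 all 9 estimates were below 0 (median -0.31, 0 called in edgeR and DESeq2, 2 with an unadjusted p under 0.05). Platelet and megakaryocyte genes, relevant to *Vwf* and *Pecam1*, summed to 4.83 to 12.5 CPM over all libraries. *Gp9* did not exceed 3 counts in any library, and 0 of the 3 tested genes were called in edgeR or DESeq2 (1 with an unadjusted p under 0.05), with a median of -0.02. Red cell genes gave 0 of 3 called (2 with an unadjusted p under 0.05), and the haemoglobin genes *Hba-a1* and *Hbb-bs* were at 0 counts in every library. These zeros do not show that blood RNA was absent. The red cell gene *Alas2* held 56 to 228 counts per library, and pairs with several alignments had been discarded. Why the haemoglobin genes had no counts was not tested. Of 7 Leydig cell genes *Insl3* was called higher (0.78, adjusted p = 0.0496) on the mean of days and *Hsd17b3* on day 22 (1.22), whereas on day 26 all 7 estimates were below 0 (median -0.54, 0 called in edgeR and DESeq2, 1 with an unadjusted p under 0.05).

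Round spermatid genes were called higher on the mean of days for 4 of 6 (*Acrv1*, *Spaca7*, *Catsper3* and *Izumo1*, 0.95 to 1.31) and elongating spermatid genes for 7 of 8, from *Odf1* (1.40) to *Prm1* (2.99). Neither edgeR nor DESeq2 called a gene of the spermatogonial or pachytene lists (1 of 5 and 1 of 6 with an unadjusted p under 0.05). On day 20 the round spermatid calls were *Acrv1*, *Catsper3*, *Spaca7*, *Izumo1* and *Spaca1* (1.97 to 3.96), with *Gapdhs*, *Akap4*, *Smcp* and *Odf1* among the later genes (3.47 to 4.45). On day 22 *Prm1*, *Prm2*, *Tnp1* and *Tnp2* were called (4.46 to 5.53). Of all 17170 genes, 604 were called higher on the mean of days, 511 on day 20 and 217 on day 22.

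Changes between days 20 and 26 were tested within each genotype. In WT, *Cdh5* (-0.75, SE 0.254, adjusted p = 0.0222) and *Kdr* (-0.78, SE 0.305, adjusted p = 0.0432) fell and *Vwf* rose (0.83, SE 0.243, adjusted p = 0.00906), so 3 of 10 were called where 42.5% of all genes were called and 18.1% were called lower. In KO, 6 of 10 fell, where 52.2% of genes were called and 24.9% were lower: *Eng* (-1.19, adjusted p = 0.00223), *Cdh5* (-1.16, adjusted p = 0.00109), *Esam* (-1.04, adjusted p = 0.00979), *Emcn* (-0.93), *Tie1* (-0.78) and *Tek* (-0.73). DESeq2 called 3 in WT and 4 in KO, with 38.1% and 45.3% of all genes. The *Kdr* call in WT was lost in 6 of 8 alternatives (-1.41 to -0.03) and that of *Cdh5* in 3 of 8 (-0.77 to -0.01). In KO the *Tie1* call was lost in 8 of 8 (-0.97 to -0.40) and in 11 of 24 fits that left out 1 library, and the *Tek* call in 7 of 8 (-0.74 to -0.36) and in 16 of 24. The *Emcn* call was lost in 4 of 8 (-0.96 to -0.56) and in 5 of 24, the *Esam* call in 2 of 8 and in 1 of 24, the *Cdh5* call in 1 of 8 and that of *Eng* in none of these. *Vwf* in KO was at 0.57 (adjusted p = 0.0573). *Flt1* was not called in either genotype, at 0.14 (95% interval -0.42 to 0.70) in WT and 0.02 (-0.55 to 0.60) in KO, intervals that leave room for a change either way. In WT the 2 of 10 called lower were close to the share of all genes.

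The direction of these changes depended on the scale. Scaling on 12 Sertoli cell genes shifted the median of all genes by 0.75 in WT (to 0.71) and by 0.37 in KO (to 0.30) and turned the calls over all genes in WT from 4183 higher and 3109 lower to 9960 higher and 55 lower. On that scale *Pecam1* (0.06), *Tek* (0.06), *Emcn* (0.05), *Eng* (0.19) and *Tie1* (0.59) changed sign in WT, and *Cdh5* (-0.01) and *Kdr* (-0.03) were near 0. *Vwf* (1.56), *Esam* (0.89) and *Flt1* (0.85) were called higher there. In KO on the same scale *Cdh5* (-0.79) and *Eng* (-0.82) were still called lower and *Vwf* (0.95) higher. *Vwf* was the one member with an increase on day 26 under both scalings that passed the test in WT.

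Without the fat-rich libraries 1 member was called in WT (*Pecam1*, -1.19, which was not called in all libraries) and 3 in KO, where 23% and 46.2% of all genes were called, and without the *Crisp1*-rich ones 0 in each with edgeR (2 unadjusted p-values under 0.05 in each genotype), where 16.5% and 17.7% of all genes were called. Without the *Crisp1*-rich libraries day 26 holds 1 library of each genotype, and without the fat-rich ones 1 of WT, assumed to vary like the other groups. With the 2 scores as covariates 6 were called in WT and 8 in KO, against 46.4% and 55.9% of all genes, with *Vwf* among the higher ones in both. The stage score as a covariate changed the sign of *Vwf* to -0.66 in WT and -0.21 in KO. Germ cell stage and age cannot be told apart in this contrast, since the stage score itself rises with age.

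**Figure D5:**
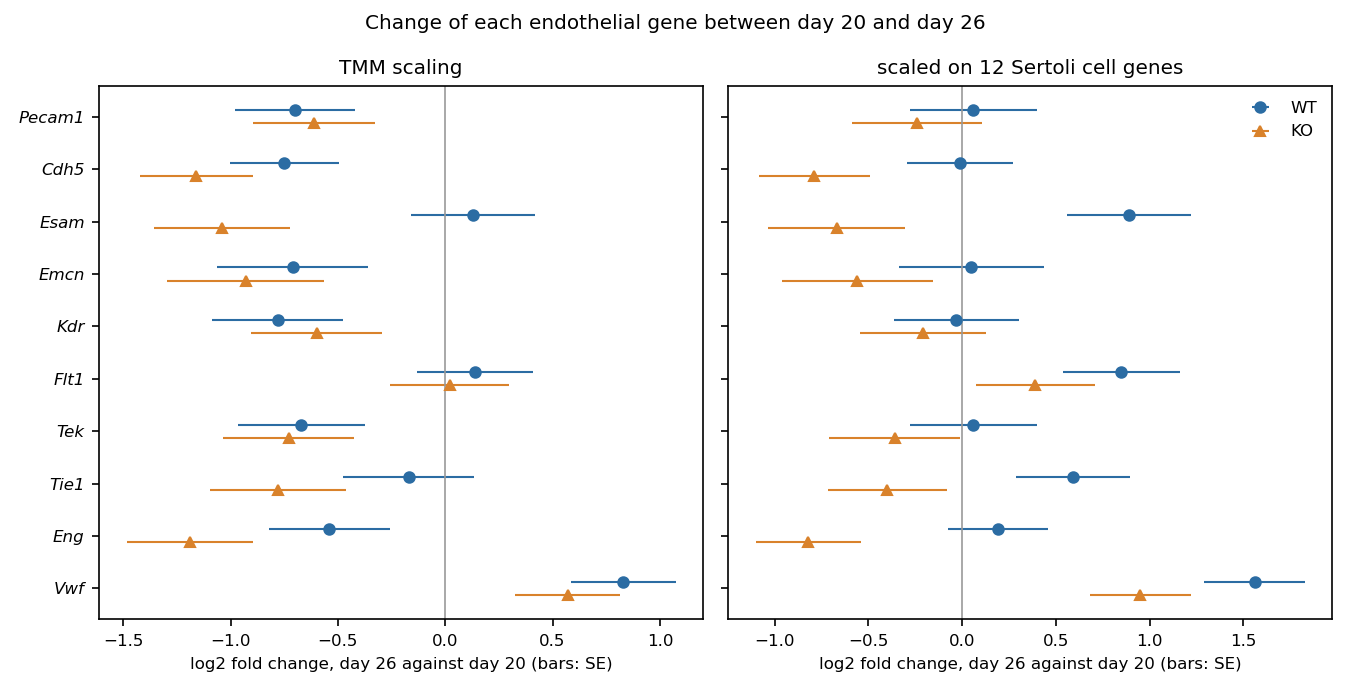
Log2 fold change from day 20 to day 26 with its standard error for each endothelial gene in WT (circles) and KO (triangles), with TMM scaling (left) and with libraries scaled on 12 Sertoli cell genes (right). *Vwf* lies right of 0 in all 4 cases (0.57 to 1.56), while *Pecam1*, *Tek*, *Emcn*, *Eng* and *Tie1* in WT lie left of 0 on the left and right of it on the right.

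Whether the change with age differed between the genotypes was tested as an interaction. The interaction called 0 of 10 members in edgeR and DESeq2, and 0% of all genes, and likewise 0 members without the fat-rich or the *Crisp1*-rich libraries (1 and 0 with an unadjusted p under 0.05). A single member had an unadjusted p under 0.05, *Esam*, which changed by 0.13 in WT and -1.04 in KO (difference -1.17, SE 0.426, adjusted p = 0.281 in edgeR). Intervals for the others were wide, for example -1.14 to 0.32 for *Cdh5* and -0.69 to 1.07 for *Kdr*.

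Among the 51 further endothelial genes the change with age was mixed. In WT 8 were called lower, close to the 18.1% of all genes called lower, and 6 higher, where 4183 of 17170 genes were. Receptor and junction genes that fell included *Notch1* (-1.03), *Nrp2* (-0.65), *Mcam* (-1.05) and *Clec14a* (-0.91), and the ETS factor *Erg* fell (-0.76). *Notch4* (0.90), *Thsd1* (0.80), the apelin ligand *Apln* (1.30), *Sox17* (1.28) and *Gata2* (2.33) rose. The ligands *Dll4* (-0.55) and *Jag1* (-0.29) did not pass the test in WT, and *Dll4* was called lower in KO (-0.96, adjusted p = 0.0357). In KO 19 were called lower, against 24.9% of all genes, and 2 higher, where 4672 of 17170 genes were. *Sox17* (1.34) and *Gata2* (2.15) rose there too, and *Apln* was at 0.10 (adjusted p = 0.824). Leaving out WT_d26_2 reduced the 8 called lower in WT, and leaving out KO_d26_2 reduced the 19 in KO. Each of these fits has a single library in that group of day 26. Which cells carried the *Sox17* and *Gata2* RNA was not tested. Without the fat-rich libraries edgeR called 18 lower in KO, where 3729 of 17366 genes were. The WT contrast of that fit, and each contrast without the *Crisp1*-rich libraries, rests on a single library of day 26 and is not counted here. On the Sertoli scale 0 of the 51 in WT and 6 in KO were called lower, where 55 and 823 of 17170 genes were. With so few calls over all genes in WT, the 0 there says little.

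Most of the 10 genes varied together from library to library, and *Vwf* had the lowest correlation. Over the 24 libraries, which share depth, age and genotype structure, the Pearson correlation of each gene with the mean of the other 9 was 0.88 for *Cdh5*, 0.85 for *Esam*, 0.81 for *Kdr*, 0.50 for *Flt1* and 0.06 for *Vwf*. After group means were subtracted it was 0.77 for *Cdh5*, 0.76 for *Esam*, 0.44 for *Pecam1*, 0.39 for *Eng* and 0.33 for *Vwf*. Among the genes of the whole table most like the mean of the 10 were *Fat4* (0.95), *Sema6a* (0.94), *Fbn1* (0.91) and the pericyte receptor gene *Pdgfrb* (0.91). With group means subtracted the 5 most alike were *Sema6a* (0.90), *Fat4* (0.89), *Gbp7*, *Nfib* and *Abca9* (0.87 each). KO_d22_4 alone was lowest for 5 of the 10 genes by count, and tied with KO_d22_3 for *Vwf* (77 counts). KO_d22_4 also had the lowest macrophage score (-1.13).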

How the data were processed

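The authors made ribosome-depleted, stranded total RNA libraries and sequenced them as 75-base read pairs. Per the study's methods and processing notes, they aligned the reads to mm10 with STAR 2.7.11b and counted pairs in exons with HTSeq by strand, discarding pairs with several alignments; the version of the gene models is not given in the sources used here. The deposited values are raw read counts per gene symbol, 1 table per library, and the rows for unassigned pairs (45.11% to 58.54% of pairs without a feature) were left out. For day 20 the labels list 4 libraries per genotype, more than the study's text, and all were used.

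Counts were tested with edgeR 4.0.16 (R 4.3.3): TMM scaling, filterByExpr with a minimum count of 10 (17170 genes kept), robust quasi-likelihood fits with 1 coefficient for each of 8 groups, Benjamini-Hochberg adjustment over all genes and a threshold of 0.05. The mean difference weights the 4 daily differences equally. CPM are TMM-scaled, log2 CPM have a prior count of 2, and RPKM use merged exon lengths of GENCODE M21 (GRCm38). Fold changes are per fitted counts. Intervals are 95%. The scripts were tested on simulated data. Alternatives were DESeq2 1.42.0 (also its size factors), scaling on 12 Sertoli cell genes, no filter or a minimum count of 50, the groups compared alone, a stage score as covariate, the replicate number as a block and leaving out each library. Fits dealing with fat and epididymis RNA were added after the data had been seen. Precision rests on 18 to 856 counts per gene and library, and no pair of replicates agreed within sampling noise (chi-square per degree of freedom 5.07 to 129, the highest for WT_d20_2).

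The members and gene lists were chosen with earlier results of these data known. Named genes are all members, list genes called over the mean of days or at a single day, for age the 3 lowest adjusted p-values in WT per endothelial list, and the genes most like the members, of which 1 is not reported here.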

Additional observations from a re-analysis of the deposited data

Results flagged for a closer look

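In the groups of 4 libraries, the gap from the farthest library to its nearest neighbour was large for the group's range, by Dixon's 95% limit, in 5 of 44 cases (10 genes and the score in 4 groups each), where about 1 in 20, or 2.2, would arise by chance. KO_d20_1 was low for *Tie1* (2.25 CPM, the other 3 libraries 3.99 to 4.09) and for the endothelial score (-0.34, the others 0.21 to 0.31). WT_d22_2, a library rich in fat cell genes, was high for *Tie1* (3.43 CPM, the others 2.97 to 3.03). KO_d22_1, which holds 1864 counts of the epididymis gene *Crisp1*, was high for *Pecam1* (7.14 CPM, the others 4.36 to 4.75). KO_d22_2 was high for *Vwf* (9.26 CPM, the others 5.07 to 5.51). The cause was not tested for any of them.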

How the results depend on the processing

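For KO against WT at day 22 the count of endothelial genes called fell from 1 to 0 with DESeq2's size factors in edgeR, without a count filter, with the stage score or the fat and epididymis scores as covariates, with the replicate block, and without the libraries rich in *Crisp1* or in *Fabp4* and *Cfd*. It ranged from 0 to 1 over the fits that left out 1 library. At day 26, 2 were called with the groups compared alone (12.8% of all genes), and at day 20, 1 with the fat and epididymis scores. On the mean of days 1 was called with the stage score and 0 without either set of libraries, with 0 (without WT_d24_2) to 5 in the leave-one-out fits.

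For age in WT the count of 3 became 1 with the groups compared alone (20.2% of all genes), 0 with the stage score (0% of all genes), 6 with the fat and epididymis scores, 0 without the *Crisp1*-rich and 1 without the fat-rich libraries, and 2 to 6 leaving out 1 library (6 without WT_d20_1). In KO the count of 6 became 4 with DESeq2, 3 on the Sertoli scale, 1 with the stage score, 0 without the *Crisp1*-rich and 3 without the fat-rich libraries, and 2 (without KO_d26_2) to 7 leaving out 1 library. Signs that turned in WT were *Pecam1* 0.06, *Tek* 0.06, *Tie1* 0.59, *Emcn* 0.05 and *Eng* 0.19 on the Sertoli scale, *Tie1* 0.01 with the replicate block, 0.28 without the *Crisp1*-rich and 0.04 without the fat-rich libraries, and *Vwf* -0.66 with the stage score. In KO they were *Vwf* -0.21 with the stage score and *Flt1* -0.00 with the replicate block and -0.04 without the *Crisp1*-rich libraries. Leaving out 1 library gave *Flt1* -0.11 to 0.35, *Tie1* -0.51 to 0.08 and *Esam* -0.07 to 0.21 in WT, and *Flt1* -0.14 to 0.21 in KO. Removing libraries leaves fewer samples, and other causes were not tested.

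Replicate numbers were not taken as pairs, since nothing in the labels ties them and the correlations of same-numbered deviations differed between ages. They were 0.0705 to 0.41 on day 20, -0.459 to -0.0254 on day 22, 0.39 on day 24 and 0.416 on day 26. With 2 libraries per group both correlations of a day are equal by construction. The *Crisp1*-rich libraries did share numbers, replicate 3 of both genotypes on day 20 and replicate 2 of both on days 24 and 26. On day 22 they were replicates 3 and 4 of WT and replicate 1 of KO. With the replicate block 6 endothelial genes were called on the mean of days, with 7.56% of all genes. Days 24 and 26, with 2 libraries per genotype, have the widest intervals.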
